A study of Mus musculus with 30 samples.

Results

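Pax2 and Zic4 are transcription factors whose RNA was followed through 30 Geo-seq libraries of the mouse eye at embryonic day 12 (E12). They are 2 of 56484 gene rows and were chosen by their levels over the sampled regions, with counts mainly in optic stalk (OS) libraries, a trait that other rows share. Their own levels are therefore described here without a test. Both rows were among the 8337 that passed the filter on low counts, more than 10 counts in at least 3 libraries. Geo-seq joins laser capture of a small area of a frozen section with cDNA amplification and RNA sequencing. The study sampled the OS, which links the optic cup to the brain, and the presumptive retinal pigment epithelium (pRPE), the layer that becomes the pigmented coat of the retina. Of the 30 libraries, 16 came from 6 OS regions (dorsal distal 3, dorsal middle 2, dorsal proximal 2, ventral distal 3, ventral middle 4, ventral proximal 2) and 14 from 4 pRPE regions (dorsal distal 3, dorsal proximal 4, ventral distal 4, ventral proximal 3). Libraries were processed in batches A and B, and each region had libraries in both. Every library was labelled control, which in this study means a C57Bl6/J littermate without the Dct-Cre driver, and the floxed alleles each embryo carried are not given in the labels. The series describes 4 control embryos at this age and its labels do not tie a library to an embryo, so the libraries of a tissue share embryos and p-values computed over libraries are too small.

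Pax2 is a paired-domain transcription factor known from the OS, the optic disc, the kidney and the midbrain-hindbrain boundary, and its loss leaves the optic fissure open. In the eye it is classically paired with Pax6, which marks the cup, and its expression in the stalk depends on Hedgehog signalling from the ventral midline. Stalk cells that express Pax2 go on to form astrocytes of the optic nerve. Zic4 is a zinc finger factor of the Zic family, best known from the dorsal neural tube and the cerebellum, where it lies head to head with its relative Zic1.

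Start-site windows are shown because the rows are read by their position beside other genes. In the GENCODE M21 annotation of GRCm38, Pax2 (ENSMUSG00000004231) spans chr19:44756045-44837871 on the plus strand with 11 merged exons, and Zic4 (ENSMUSG00000036972) spans chr9:91362413-91389348 on the plus strand, also with 11 merged exons. Zic1 (chr9:91358058-91365810) runs on the minus strand, and the RefSeq starts of Zic1 and Zic4 are 3204 bases apart. The windows below are RefSeq promoters of GRCm38.p6, written 5′ to 3′ on the gene's own strand from 250 bases before to 50 bases after a start. They lie at chr19:44755502-44755801 (Pax2, the window nearest the GENCODE start among 3), chr9:91368722-91369021 (Zic4) and chr9:91365719-91366018 (Zic1). Capitals mark exact matches, on either strand, to the GC box GGGCGG, the CCAAT box, the TATA box (TATAAA), the homeodomain core written TAATTA, or the letters GACCACCC, which are shared by known Gli and Zic sites. No marked match overlapped another.
Pax2: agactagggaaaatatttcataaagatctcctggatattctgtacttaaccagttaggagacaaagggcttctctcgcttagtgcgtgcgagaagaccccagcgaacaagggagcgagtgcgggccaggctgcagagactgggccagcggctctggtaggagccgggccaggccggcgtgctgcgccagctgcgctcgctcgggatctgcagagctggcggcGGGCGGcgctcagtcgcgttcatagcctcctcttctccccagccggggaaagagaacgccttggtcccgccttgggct
Zic4: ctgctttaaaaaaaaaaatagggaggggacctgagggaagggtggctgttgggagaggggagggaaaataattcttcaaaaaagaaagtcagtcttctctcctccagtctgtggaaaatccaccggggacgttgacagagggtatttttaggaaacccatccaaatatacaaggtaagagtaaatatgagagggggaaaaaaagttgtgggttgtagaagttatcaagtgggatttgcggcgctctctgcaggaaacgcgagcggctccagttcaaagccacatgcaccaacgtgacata
Zic1: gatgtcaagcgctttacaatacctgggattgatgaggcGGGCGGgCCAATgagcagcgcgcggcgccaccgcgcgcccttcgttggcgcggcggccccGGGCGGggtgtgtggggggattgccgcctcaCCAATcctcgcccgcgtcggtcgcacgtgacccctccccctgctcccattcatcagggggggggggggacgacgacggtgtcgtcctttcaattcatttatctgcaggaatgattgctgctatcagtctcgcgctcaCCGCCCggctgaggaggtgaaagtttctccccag
The Pax2 window held 1 GGGCGG match and the Zic1 window held 3, together with 2 CCAAT matches. None of the 5 motifs was found in the Zic4 window, which had a GC content of 46.0% beside 61.7% for Pax2, 65.3% for Zic1 and a median of 52.7% over 32851 windows. Of all windows, 35.7% held GGGCGG, 37.4% CCAAT, 13.6% TATAAA, 5.29% TAATTA and 0.807% GACCACCC. A match describes these letters alone, and no match says nothing about the factor.

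Levels are given as CPM, counts scaled to a common library size after TMM normalization, or as log2(CPM + 1), both computed from the authors' estimated counts. Total counts per library ranged from 1421918 to 6041021. OS libraries had counts in 4186 ± 1886 genes (SD, n = 16) and pRPE libraries in 5581 ± 2239 (n = 14). Zeros were frequent, at 56.8% of all values of the kept genes. Of 19890 protein-coding rows, 6787 (34.1%) had no count in any library, among them Pax6, Hes1, Shh and the pigment enzymes Tyr, Tyrp1 and Dct, so a 0 means that the gene was listed at 0 and not that its RNA was absent. A count of 0 allows up to 3 counts, for counting error only, because the amplified reads carried no molecular identifiers. That floor lay between 0.689 and 2.07 CPM in the pRPE libraries. In pieces of tissue, fewer cells with a transcript and less transcript per cell cannot be told apart.

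Pax2 was counted in 12 of 16 OS libraries, and in 12 of the 13 taken outside the dorsal distal OS. In the ventral proximal OS it stood at 299 CPM in replicate 1 (628 counts) and 67.0 in replicate 2 (216 counts). The dorsal middle OS had 164 CPM (406 counts) and 87.4 CPM (182 counts). These 4 libraries, 2 from a ventral and 2 from a dorsal region at another position of the stalk, were all at 67.0 CPM or above. The ventral middle OS was uneven, with 27.1, 17.2, 691 and 0 CPM in replicates 1 to 4. Its replicate 3 had 1840 Pax2 counts, the highest of all libraries, whereas replicate 4, with a total of 2813079 counts, was the sole library outside the dorsal distal OS without any. The dorsal proximal OS had 4.32 CPM (9 counts) and 66.5 CPM (206 counts). Low values filled the ventral distal OS, with 7.98, 0.298 and 17.5 CPM, the second of these from 1 count. All 3 dorsal distal OS libraries were listed at 0.

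By mean log2(CPM + 1), Pax2 was ordered as ventral proximal OS (7.16 ± 1.51, SD, n = 2), dorsal middle OS (6.91 ± 0.63, n = 2), ventral middle OS (4.61 ± 3.86, n = 4), dorsal proximal OS (4.24 ± 2.59, n = 2) and ventral distal OS (2.59 ± 1.98, n = 3). The pRPE regions with a count followed, ventral proximal at 1.79 ± 3.10 (n = 3) and dorsal proximal at 0.37 ± 0.74 (n = 4). The dorsal distal OS and both distal pRPE regions stood at 0. In each of the 9 pairs of neighbours in this order the ranges overlapped, although 2 of these pairs were of regions at 0 in every library, so no neighbours were separated by more than their spread. Among regions further apart, both ventral proximal libraries (67.0 and 299 CPM) lay above all 3 ventral distal ones, which reached 17.5 CPM. This pair is taken from many and rests on 2 and 3 libraries that may share embryos, so it is a description.

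In the pRPE, Pax2 was counted in 2 of 14 libraries (14.3%). Ventral proximal replicate 2 had 103 counts (40.3 CPM) and dorsal proximal replicate 4 had 4 counts (1.78 CPM). The other 12 were listed at 0, including all 7 distal pRPE libraries, so that both pRPE libraries with Pax2 came from the proximal side. OS libraries ranged from 0 to 691 CPM with a median of 17.4, and the tissues overlapped through the 4 OS zeros and the 2 pRPE libraries with counts. Mean levels were 90.6 ± 179 CPM in the OS (n = 16) and 3.01 ± 10.7 CPM in the pRPE (n = 14). Ventral middle OS replicate 3 held 47.7% of the summed OS level, and without it the OS mean was 50.5 ± 82.7 CPM (n = 15). Ventral proximal pRPE replicate 2 held 95.8% of the pRPE sum, and the pRPE mean without it was 0.137 ± 0.493 CPM (n = 13). On the log2 scale the OS exceeded the pRPE by 3.44, by 3.54 within batch A and by 3.42 within batch B. With so many zeros this size is set in part by the value added before the logarithm, being 5.35 with 0.1 and 1.73 with 10 in place of 1.

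Along the dorsal-ventral axis, Pax2 was counted in 8 of 9 ventral and 4 of 7 dorsal OS libraries. Levels ran from 0 to 691 CPM (median 17.5) in the ventral OS and from 0 to 164 CPM (median 4.32) in the dorsal OS, a nearly complete overlap. The difference in mean log2(CPM + 1) was 1.31 toward ventral, with group means of 4.50 ± 3.16 and 3.19 ± 3.36, and it was smaller than either SD. Batch A alone gave 1.84 and batch B alone 0.89. The difference fell to 0.70 without ventral middle OS replicate 3 and rose to 2.01 without dorsal middle OS replicate 1. The 3 zeros of the dorsal distal OS made up all dorsal zeros, and the other 4 dorsal OS libraries had 4.32 to 164 CPM.

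Along the stalk, Pax2 was lowest at the distal end, and the middle and proximal libraries overlapped. It was counted in 3 of 6 distal, 5 of 6 middle and 4 of 4 proximal OS libraries. Distal libraries reached 17.5 CPM, with a median of 0.149, middle ones ran from 0 to 691 CPM with a median of 57.3, and proximal ones ran from 4.32 to 299 CPM with a median of 66.8. Mean CPM was 4.30 ± 7.21 (n = 6), 164 ± 265 (n = 6) and 109 ± 130 (n = 4) in this order, and 59.1 ± 67.1 in the middle OS without ventral middle replicate 3. Mean log2(CPM + 1) was 1.29 ± 1.89 in distal, 5.38 ± 3.23 in middle and 5.70 ± 2.42 in proximal OS. The difference between proximal and distal was 4.41, which was larger than either SD. The ranges still overlapped through dorsal proximal OS replicate 1. Within batches the difference was 3.74 in A and 4.94 in B.

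**Figure D1:**
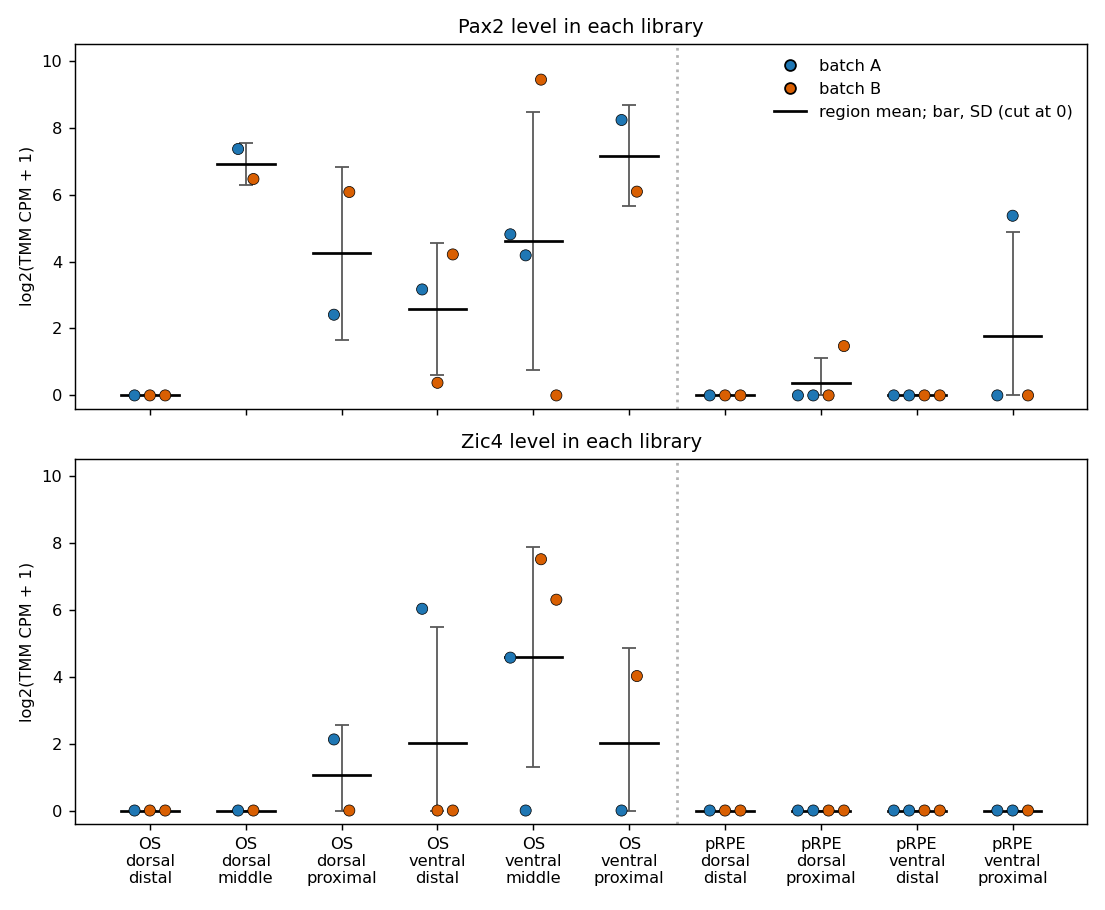
Pax2 (top) and Zic4 (bottom) level of each of the 30 libraries as log2(TMM CPM + 1), by region and coloured by batch, with the region mean (line) and SD (bar, cut at 0). Pax2 points are above 0 in every OS region except dorsal distal, Zic4 points above 0 lie in the 3 ventral OS regions and in 1 dorsal proximal OS library, and both batches contribute to each pattern.

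Zic4 was counted in 6 of 16 OS libraries and listed at 0 in all 14 pRPE libraries. The ventral middle OS carried it in 3 of 4 libraries, at 22.7, 181 and 77.8 CPM in replicates 1, 3 and 4 (31, 482 and 230 counts). In the ventral distal OS it appeared in replicate 1 alone, at 64.3 CPM (145 counts). In the ventral proximal OS it appeared in replicate 2 alone, at 15.2 CPM (49 counts). These ventral libraries stood far above the floor of 3 counts, with 31 counts or more each. The lone dorsal library was dorsal proximal OS replicate 1, at 3.36 CPM (7 counts), and the dorsal distal and dorsal middle OS were listed at 0 throughout.

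The mean Zic4 level was 22.8 ± 48.6 CPM in the OS (n = 16). The row was chosen for this pattern and passed the filter on low counts through OS libraries alone, so no fold against the pRPE is given. Ventral middle OS replicate 3 held 49.7% of the summed level, and without it the OS mean was 12.2 ± 24.9 CPM (n = 15). Ventral OS libraries had Zic4 in 5 of 9 cases, with a median of 15.2 CPM and a mean of 40.1 ± 60.4, and dorsal OS libraries in 1 of 7. Mean log2(CPM + 1) was 3.16 ± 3.16 in the ventral and 0.30 ± 0.80 in the dorsal OS, a difference of 2.85, which was 1.94 within batch A and 3.57 within batch B. All 4 ventral OS libraries without Zic4 overlapped the dorsal zeros.

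No direction along the distal-proximal axis held for Zic4. It was counted in 1 of 6 distal, 3 of 6 middle and 2 of 4 proximal OS libraries. The proximal mean exceeded the distal mean by 0.53 on the log2 scale, less than the SDs of 1.93 and 2.46. The sign differed between batches, at -1.95 in A and 2.01 in B, and it turned to -0.30 without ventral proximal OS replicate 2. The highest regional mean was that of the ventral middle OS (4.59 ± 3.29, n = 4), followed by the ventral distal (2.01 ± 3.48, n = 3), ventral proximal (2.01 ± 2.84, n = 2) and dorsal proximal OS (1.06 ± 1.502, n = 2), and the ranges of neighbouring regions overlapped throughout, 5 of the 9 pairs being regions at 0 in every library.

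Whether the genes appeared in the same libraries was the remaining part of the question. Both were counted in 5 libraries, Pax2 without Zic4 in 9, Zic4 without Pax2 in 1 and neither in 15. The 5 shared libraries were ventral middle OS replicates 1 and 3, ventral distal OS replicate 1, ventral proximal OS replicate 2 and dorsal proximal OS replicate 1. So 83.3% of the Zic4 libraries, which were all OS libraries, had Pax2, near the 75.0% of all OS libraries with Pax2, and 35.7% of the Pax2 libraries had Zic4. Ventral middle OS replicate 3 was the highest for both genes, whereas its neighbour replicate 4 had 230 Zic4 counts and 0 of Pax2, and ventral proximal OS replicate 1 had 628 Pax2 counts and 0 of Zic4.

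Within the OS the split was 5 libraries with both, 7 with Pax2 alone, 1 with Zic4 alone and 3 with neither, the last being the dorsal distal OS. Side divided the shared libraries, with 4 of 9 ventral and 1 of 7 dorsal OS libraries holding both genes. Batch A gave 3 of them and batch B 2. At a minimum of 3 counts the number of shared libraries was still 5, and at more than 10 counts it was 4, since dorsal proximal OS replicate 1 had 9 and 7 counts. Levels of the genes correlated weakly, with Pearson's r = 0.36 and Spearman's rho = 0.35 over the 30 libraries and r = 0.16 and rho = 0.10 over the 16 OS libraries. Without the 2 libraries farthest from the Pax2 median, r was 0.21 over all and -0.19 within the OS. The points share the difference between tissues, and the zeros dominate them, so these values are descriptions.

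**Figure D2:**
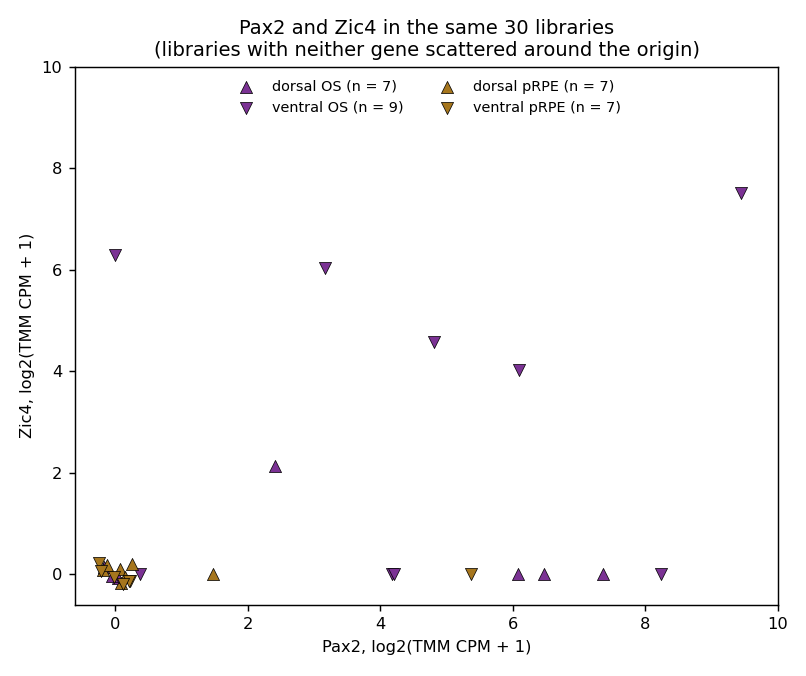
Zic4 (vertical) against Pax2 (horizontal) in the 30 libraries, each as log2(TMM CPM + 1), with triangles up for dorsal and down for ventral samples, and the 15 libraries without either gene spread around the origin for visibility. The 5 libraries with both genes are OS libraries, 7 OS and 2 pRPE libraries lie along the Pax2 axis, and 1 ventral OS library lies on the Zic4 axis.

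Since OS libraries had fewer detected genes than pRPE libraries, the 2 rows were set beside all others. Over the 8337 kept genes the median gene had a count in 25.0% of OS and 42.9% of pRPE libraries, and 17.0% of genes had a larger share in the OS. The difference in share was 60.7 percentage points for Pax2 (75.0% against 14.3%) and 37.5 points for Zic4 (37.5% against 0%), against a median of -12.5. No kept gene exceeded the Pax2 difference, and 9 exceeded that of Zic4. This ranking describes the way the genes were chosen. Pax2 was the sole kept row counted in at least 12 OS and at most 2 pRPE libraries, and Zic4 and the predicted gene Gm38224 were the 2 kept rows counted in at least 6 OS libraries and no pRPE library.

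**Figure D3:**
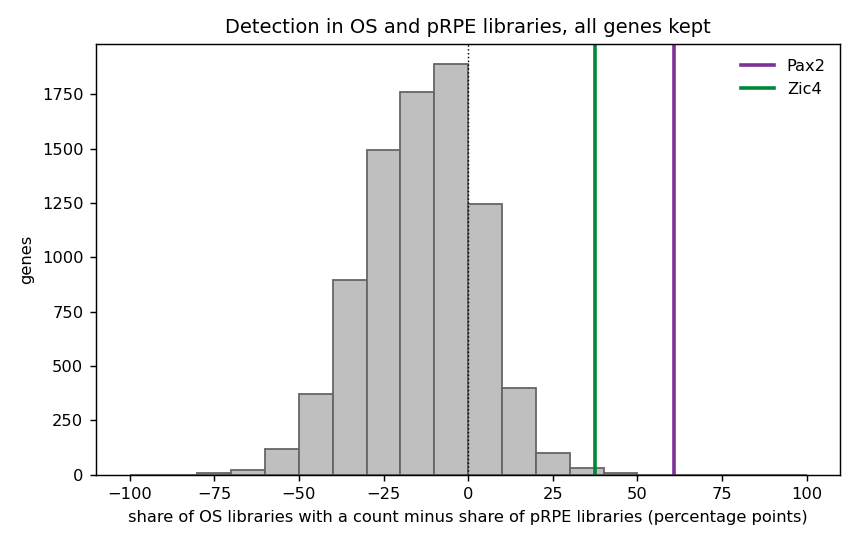
Histogram of 8337 kept genes by the share of OS libraries with a count minus the share of pRPE libraries, in percentage points (bins of 10 points), with lines at Pax2 and Zic4. Most genes lie below 0, the Pax2 line at 60.7 stands to the right of every other gene, and the Zic4 line at 37.5 lies in the upper tail.

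The number of detected genes did not rise with either gene. It correlated with the Pax2 level at r = -0.22 and with the Zic4 level at r = -0.24 over the 30 libraries. OS libraries with both genes had 2244 to 4436 detected genes (median 4135, n = 5), those with Pax2 alone 1730 to 9315 (median 3706, n = 7), and those with neither 3505 to 6769 (median 4158, n = 3). The dorsal distal OS libraries, all without Pax2 and Zic4, had totals of 1965657 to 5400977 counts, beside 1421918 to 3030779 in the other OS libraries. The 2 pRPE libraries with Pax2 had 5403 and 9886 detected genes, the latter the most of any library.

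Rows at the same loci bear on what the counts hold, because the library kit does not mark strand. Within the Pax2 span lie Gm20395 and 1700039E22Rik, annotated as antisense, and the microRNA Mir6405. Gm20395 had 19 to 85 counts in 5 libraries, 2 of them shared with Pax2. 1700039E22Rik had 741 counts in dorsal proximal OS replicate 2 alone, where Pax2 had 206, and 189 of its bases overlap Pax2 exons. Mir6405 had 32 counts in ventral middle OS replicate 1 alone, where Pax2 had 37. In the 189 shared bases, reads of 1700039E22Rik and of Pax2 cannot be told apart, whereas Gm20395 and Mir6405 share 0 bases with Pax2 exons. The libraries highest in Pax2, ventral middle OS replicate 3 and ventral proximal OS replicate 1, had no count in any of the 3 rows. Beyond the locus, Slf2, the nearest protein-coding gene downstream of Pax2, was counted in 27 libraries and Hif1an upstream in 10. Around Zic4, Tbc1d2b was counted in all 30 libraries and Plscr5 in none.

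Zic1 overlaps the annotated span of Zic4 by 3398 bases, of which 106 are exonic, and was counted on the other side of the stalk. Its 6 libraries were 5 of 7 dorsal OS libraries, none of 9 ventral OS libraries and 1 of 14 in the pRPE. The highest were dorsal proximal OS replicate 1 with 130 counts (62.4 CPM) and dorsal middle OS replicate 2 with 48.5 CPM, and the other 4 had 3 to 5 counts. Dorsal proximal OS replicate 1, with 7 Zic4 counts, was the lone library with both neighbours, so the single dorsal record of Zic4 came from the library highest in Zic1. Zic2 and Zic5 were counted in 1 pRPE library each, with 51 and 67 counts, the Zic5 library being ventral proximal replicate 2.

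Among the other Pax genes, Pax5 and Pax8 are the close relatives of Pax2. Pax5 was counted in 3 OS libraries (ventral middle replicate 1 at 32.98 CPM, ventral proximal replicate 2 at 28.5 and dorsal proximal replicate 2 at 1.29), and all 3 also held Pax2. Pax8 had 1180 counts (443 CPM) in ventral middle OS replicate 3, the library highest in Pax2, and 14 counts (5.48 CPM) in ventral proximal pRPE replicate 2, the pRPE library with most Pax2. Pax3 was counted in 2 libraries and Pax9 in 1, and these too held Pax2, as did 14 of the 30 libraries in all. Pax7 was counted in 5 libraries, 1 of them with Pax2, Pax1 in 1 without Pax2, and Pax4 and Pax6 in none. Of these Pax7 alone passed the filter, and it was not called between OS and pRPE (log2 fold change -0.10 ± 13.1, SE).

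**Figure D4:**
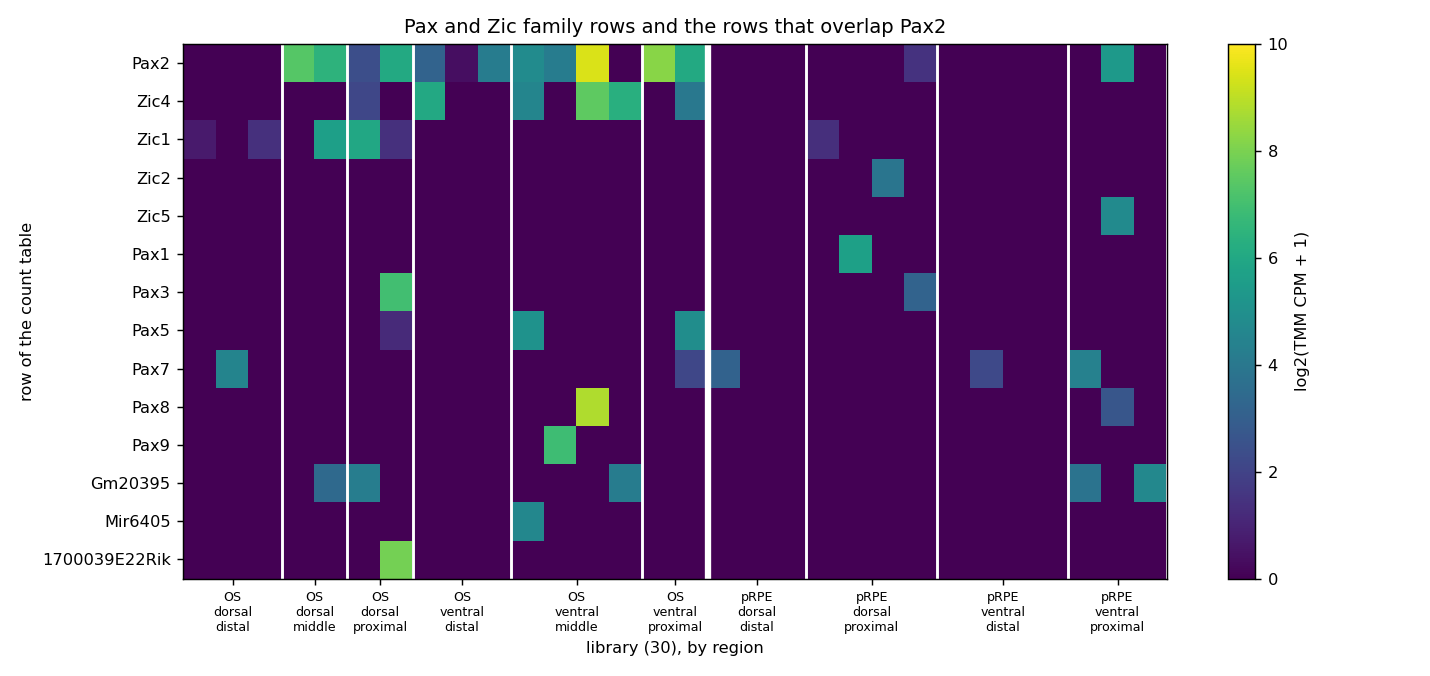
Level as log2(TMM CPM + 1) of Pax2, Zic4, the Zic and Pax family rows with any count and the 3 rows overlapping Pax2, in 30 libraries ordered by region. Each row is read along its own length, since levels are not comparable between genes, and it shows Zic1 in dorsal and Zic4 mainly in ventral OS libraries, and Pax3, Pax5, Pax8 and Pax9 in 1 to 3 libraries each that also hold Pax2.

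Markers of neighbouring tissues differed between the libraries behind these values. The summed level of 13 pigment epithelium genes, of which Tyr, Tyrp1 and Dct were listed at 0 in all, ran from 0 to 2424 CPM in the OS (median 261) and from 174 to 2654 in the pRPE (median 1039). OS libraries with Pax2 or Zic4 had low sums, of at most 486 CPM, except dorsal middle replicate 1 (879) and ventral middle replicate 3 (1400). Their medians were 198 CPM with both genes, 152 with Pax2 alone and 136 with Zic4 alone, beside 1084 in the dorsal distal OS libraries without either gene (343, 2424 and 1084). The part of pigment epithelium in these libraries' Pax2 and Zic4 levels was not tested. Of 13 mesenchyme genes, 7 were listed at 0 in all libraries, among them Twist1, Prrx1 and Foxc1, and the sum reached 1001 CPM in ventral middle OS replicate 3, the highest OS value beside a median of 43.7. That sum came from the collagen gene Col1a2 (816 CPM) and from Pdgfra (184 CPM), which also stands in the astrocyte progenitor list, with the other mesenchyme genes at 0. The pRPE reached 1112 CPM. Ventral middle OS replicate 3 was thus the highest OS library in Pax2, Zic4 and this sum, and ventral proximal OS replicate 1, with the next highest Pax2 level, also had the next highest sum of the OS, 447 CPM, from Col1a2 (406 CPM) and Col3a1 (40.5 CPM). The part of mesenchyme in those levels was not tested.

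Ventral proximal pRPE replicate 2, which held 103 Pax2 counts, had the highest sum of 8 neural retina genes of all libraries, 108 CPM, beside a pRPE median of 4.71 and an OS median of 0.689. Its pigment sum of 680 CPM lay within the pRPE range. Dorsal proximal pRPE replicate 4, with 4 Pax2 counts, had a neural retina sum of 52.9 CPM and the highest pigment sum, 2654 CPM. Dorsal proximal replicate 3 and dorsal distal replicate 3 of the pRPE, without Pax2, had like neural retina sums of 57.0 and 50.5 CPM. The part of retinal tissue in the Pax2 counts of the pRPE was not tested. Sums of blood, endothelium, forebrain and lens markers stayed at or below 66.5, 614, 45.8 and 38.9 CPM in any library, with 6 of 9, 4 of 7, 5 of 9 and 3 of 7 of their genes listed at 0 throughout.

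**Figure D5:**
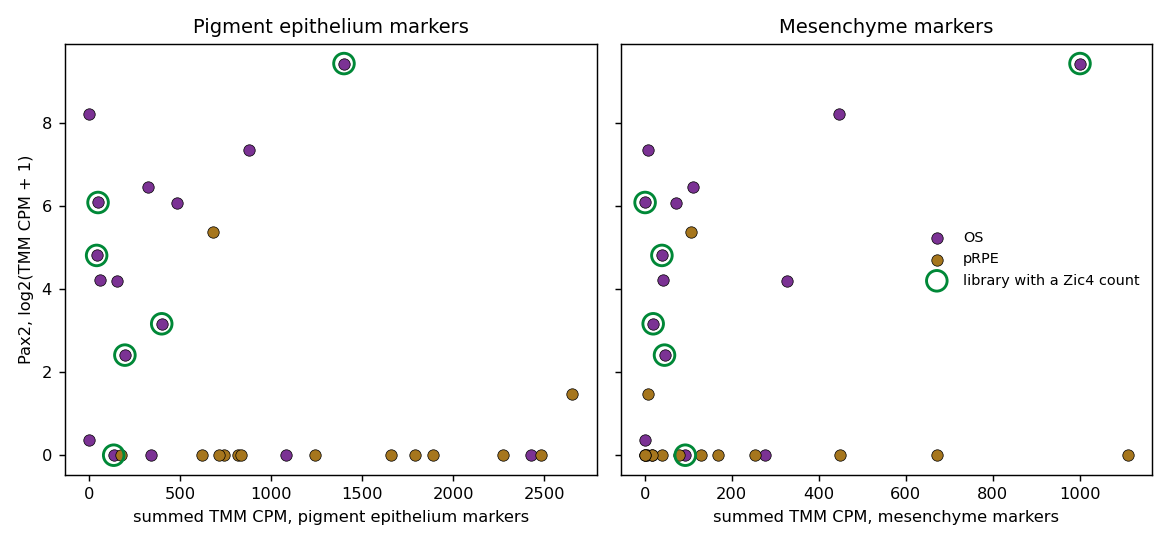
Pax2 level as log2(TMM CPM + 1) against the summed TMM CPM of 13 pigment epithelium markers (left) and 13 mesenchyme markers (right) in 30 libraries, with green rings on the 6 libraries with Zic4. OS libraries with Pax2 lie at pigment sums of at most 486 CPM apart from 2 at 879 and 1400, and ventral middle OS replicate 3, with both genes, lies at 1400 CPM for pigment and 1001 CPM for mesenchyme.

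The genes around Pax2 and Zic4 were read from a quasi-likelihood fit in edgeR over all kept genes, with the batch in the model. Calls needed a log2 fold change past 0.58 in size together with an adjusted p (Benjamini-Hochberg) below 0.05, and these p-values over libraries that share embryos are too small. Between OS and pRPE, 126 genes (1.51%) were higher and 480 (5.76%) lower in the OS, with a median log2 fold change of -0.39. The balance turned to 332 higher and 215 lower with the number of detected genes in the model, and filterByExpr's stricter filter left 3 and 44. With the 4 runs of consecutive library numbers as a block, which may stand for embryos, 10 genes were called. Between ventral and dorsal OS, 0 genes (0%) were higher and 1 gene (0.012%) lower, while 2168 had an unadjusted p under 0.05 and DESeq2 called 816. That gene, named here after its value was seen, was the growth factor Gdf11, with 1589 ± 804 CPM in ventral and 5793 ± 2733 in dorsal OS libraries, and no gene was called with the run block, with the number of detected genes in the model or with any of the 3 other scalings. Between proximal and distal OS, 0 of 5012 genes were called by edgeR in either direction (0% and 0%), with 418 at an unadjusted p under 0.05 and 784 called by DESeq2.

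The lists of related genes held few genes that could be tested. Of 18 regulators of the optic stalk and ventral eye, 5 were listed at 0 in all libraries, among them Six6, Hes1, Bmp7 and Fgf8, and 4 passed the filter. None of the 4 was higher and 1 was lower in the OS, beside 1.51% and 5.76% of all kept genes. Their median log2 fold change was -2.70 beside -0.39 over all genes. It was the same with the gene at 0 in the OS put at the floor of 3 counts per library. The lower gene was Rax, the eye field homeobox factor, which was listed at 0 in all 16 OS libraries and counted in 6 of 14 pRPE libraries, at 97.4, 52.1, 50.5, 49.8, 2.02 and 1.89 CPM (edgeR adjusted p = 0.0300). Rax passed the filter through pRPE libraries alone, so that its call is no support for a lower level in the OS. Without ventral proximal pRPE replicate 2, the library with Pax2, the adjusted p for Rax was 1.0, and with the run block it was 0.0762. Sema5a, a guidance cue, had a median of 488 CPM in the OS and 152 in the pRPE and was not called (log2 fold change 1.90 ± 1.07, SE, adjusted p = 0.3004). The homeobox genes Vax1 and Vax2, known partners of Pax2 in stalk specification, were counted in 1 library each, Vax1 in the OS and Vax2 in the pRPE.

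Hedgehog signalling is the pathway known to induce Pax2. Of its 15 listed genes 8 passed the filter, and none was called in the 3 comparisons by edgeR, beside 0, 3 and 1 at an unadjusted p under 0.05 for tissue, side and position and 1 called by DESeq2 in each. Their median log2 fold change between OS and pRPE was -0.02. The ligand Shh was listed at 0 in all libraries. The receptor component Smo was counted in all 30 libraries, with a median of 305 CPM in the OS and 483 in the pRPE (adjusted p = 0.894). The receptor Ptch1, itself a target of the pathway, was counted in 5 libraries and the target Gli1 in 3.

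Of 13 partners and targets of Pax2 known from kidney and ear, 6 passed the filter. The ligand Wnt4, at up to 47.0 CPM in 3 OS libraries and up to 12.9 CPM in 2 pRPE libraries, was not called (edgeR adjusted p = 0.687). The nuclear factor Dach1 was counted in 2 OS and 7 pRPE libraries, at up to 96.1 and 117 CPM, and was not called either (adjusted p = 0.137).

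Of 16 genes of astrocyte progenitors, the fate of Pax2 cells of the stalk, 9 passed the filter. Of these 1 was higher and none lower in the OS, beside 1.51% and 5.76% of all kept genes. Over all genes the median log2 fold change was -0.39, and over the 9 it was 0.14. That median was the value of Aldoc, which was counted in 3 libraries and could not be fitted (SE 135), and without it the median was 0.47. The higher gene was Vim, which encodes the filament protein vimentin of progenitors and immature glia. It was counted in all libraries, from 293 to 3135 CPM in the OS (median 2055) and from 272 to 1418 in the pRPE (median 804), with a log2 fold change of 1.18 ± 0.32 (SE, adjusted p = 0.0300). With the run block the adjusted p was 0.0825. Gfap, a marker of mature astrocytes, was counted in 5 libraries, and Sox9 and Fabp7 were listed at 0 in all.

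Of 8 transcription factors of the pRPE, 5 were listed at 0 in all libraries and the 3 that passed the filter were not called. Their median log2 fold change was 0.38, the value of Otx2, which was counted in 3 libraries and could not be fitted (SE 376), and without it the median was -0.09. Tfec, a relative of Mitf, was counted in 14 OS libraries (median 327 CPM) and 8 pRPE libraries (median 33.7), with a log2 fold change of 1.70 ± 1.15 (SE, adjusted p = 0.441). Mitf, the master regulator of pigment cells, was counted in 7 OS libraries, 6 dorsal and 1 ventral, and in 11 pRPE libraries. Among the 13 pigment markers 7 passed the filter. None of these was higher and 2 were lower in the OS, beside 1.51% and 5.76% of all kept genes. Their median log2 fold change was -1.89, beside -0.39 over all genes. It was -2.104 without Otx2, and -1.405 with the gene at 0 in the OS put at the floor of 3 counts per library. Gpnmb, a melanosome glycoprotein, had a median of 2.90 CPM in the OS and 405 in the pRPE (log2 fold change -4.89 ± 1.07, SE, adjusted p = 0.0300, and 0.0484 with the run block). Pmel, the melanosome matrix protein, was listed at 0 in the OS and counted in 3 pRPE libraries, with 93, 19 and 11 counts. It passed the filter on low counts through those libraries alone, so its call is no support for a lower level in the OS. The other marker lists had 0 called genes except for Rax, which also stands in the neural retina list.

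The genes whose levels ran most like Pax2 over the 30 libraries were Cenpb (Pearson's r = 0.64), Vim (0.62), Gm11955 (0.61), Gm43864 (0.60) and Xirp2 (0.59). Cenpb encodes a centromere protein and was counted in 22 libraries, 12 of them with Pax2. Without ventral middle OS replicate 3, r stayed at 0.62 for Vim and 0.59 for Cenpb and dropped to 0.44 for Xirp2. For Zic4 they were Gm5466 (0.72), Gm19327 (0.69), the choline kinase Chka (0.65), Gm23034 (0.63) and Wasf2 (0.63), a regulator of actin. Chka was counted in 10 libraries, 5 of them with Zic4, and its r was 0.80 without ventral middle OS replicate 3, whereas that of Gm19327 was 0.49. Zic4 ranked 166th by likeness to Pax2, and Pax2 ranked 153rd by likeness to Zic4, so that for both genes many other rows followed the profile more closely than the other member did.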

How the data were processed

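The E12 table held 30 Geo-seq libraries of control embryos, captured by position on Cresyl Violet-stained sections. The authors aligned reads to GRCm38 with HISAT2, and ran StringTie, and the deposited values are estimated counts, 1 row for each gene symbol, without normalization. The annotation release is not given in the sources used here. A total of 270 values in 63 genes were not whole and were rounded. Amplification and the many zeros make single values at low counts uncertain.

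Counts were analysed with edgeR 4.0.16 and DESeq2 1.42.0 in R 4.3.3, and with python 3.11.15, numpy 2.4.6 and pandas 2.3.3. CPM used TMM scaling over the 8337 genes with more than 10 counts in at least 3 libraries, and 1 was added before log2. Tissue and side were fitted as 4 groups with batch, and position within the OS with side and batch. The fits were tested on simulated data, with an outcome that is not reported here. The common dispersion, the fit's measure of spread between libraries, was 7.26. A gene that was not called is therefore not shown to be unchanged. The members and gene lists were chosen with earlier results of these data known. Named are Pax2, Zic4, from each list the called genes and up to 4 with the highest mean, the 5 genes most correlated with each member, and the nearest genes, with others given by counts.

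Library numbers form 4 runs within the batches. Deviations of libraries from their region correlated with a mean r of 0.016 within a run (103 pairs, -0.0653 to 0.225). Between runs of the same batch the mean r was -0.00915 (98 pairs, -0.237 to 0.081). These values cannot tell whether a run was an embryo. The runs were not treated as pairs, and the run block was an alternative. With it 10 genes were called between OS and pRPE, beside 606 in the main fit. Other alternatives were DESeq2, other scalings, filters, pseudocounts and thresholds, no batch, no mitochondrial genes, single batches and leaving out each library. The model with batch and the number of detected genes was chosen after seeing the data. Of the 56484 rows, 49083 had a symbol in GENCODE M21. Some genes of the lists are not reported here.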

Additional observations from a re-analysis of the deposited data

Results flagged for a closer look

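In 9 groups of 4 to 10 libraries, 4 checks found a library set apart from the rest of its group, where chance flags about 1 in 20 groups. All 4 concern groups in which every other library was listed at 0, so any count stands apart. Dorsal proximal pRPE replicate 4 had 1.779 CPM of Pax2, from 4 counts, the sole value above 0 both among the 4 libraries of its region and among the 7 of the dorsal pRPE. Ventral proximal pRPE replicate 2 had 40.29 CPM of Pax2, from 103 counts, the sole value above 0 among 7 ventral pRPE libraries. Dorsal proximal OS replicate 1 had 3.358 CPM of Zic4, from 7 counts, the sole value above 0 among 7 dorsal OS libraries.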

How the results depend on the processing

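The levels of Pax2 between tissues, sides and positions and of Zic4 between sides kept their direction under the scalings, pseudocounts and batches tried. Zic4 along the stalk did not. Both genes were chosen by these levels, so a kept direction is a description and no support. With all 14 pRPE libraries at 0 for Zic4, no setting could turn its sign between tissues. Within batch B its sign between sides was also fixed, since all 4 dorsal OS libraries were at 0. The size of the differences on the log2 scale followed the pseudocount. With 0.1 and 10 in place of 1, Pax2 differed by 5.348 and 1.727 between tissues, 2.181 and 0.639 between sides, and 6.313 and 2.445 between proximal and distal OS. Zic4 differed by 4.253 and 1.421 between sides. The Zic4 difference between proximal and distal OS was -1.952 within batch A. Leaving out each library in turn gave a range of -0.297 to 1.535 for that difference, and pseudocounts of 0.1 and 10 gave 1.537 and -0.044. The 5 libraries with both genes were 3 within batch A and 2 within batch B, which follows from splitting them. Calls over all genes depended on the model. For OS against pRPE, 47 genes were called with filterByExpr and 10 with the replicate block of library runs, beside 606, and with the number of detected genes in the model 332 were higher and 215 lower, against 126 and 480. For ventral against dorsal OS, where 1 gene was called, the count was 0 with DESeq2's size factors, TMMwsp, total counts alone, the replicate block, or the detected genes, but 816 with DESeq2, 168 with every counted gene and 1263 without the batch, and it ran from 0 to 4 when single libraries were left out. For proximal against distal OS it was 784 with DESeq2 and 0 with the other settings. The cause was not tested. Of the called list genes named above, Gpnmb kept its call in all settings run, and Vim, Rax and Pmel lost it with the replicate block (adjusted p of 0.08254, 0.07624 and 0.1209), the last 2 being genes listed at 0 in the OS. Vim also lost it with filterByExpr and with every counted gene, Pmel with every counted gene, and Rax and Pmel with the detected genes in the model. Zeros at these depths limit every statement on absence.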
